A study of Homo sapiens with 6 samples.

Results

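The genes described here are 10 genes of the pluripotency network: POU5F1, SOX2, NANOG, JARID2, LIN28A, L1TD1, DPPA4, SALL1, VRTN and ZSCAN10. Their peaks were taken from 3 deposited β-catenin peak lists as those to which the authors had assigned one of these gene names, at any distance from its transcription start site (TSS). This gave 13 peaks of 3126 in all. RPMI contributed 0 of 260 peaks, CHIR 6 of 1053 and CHIR+SB 7 of 1813. NANOG was the 1 gene with no peak in any list.

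The lists come from chromatin immunoprecipitation and sequencing (ChIP-seq) of β-catenin in SA121, a human embryonic stem cell line. Confluent cultures spent 6 h in RPMI-1640 without inhibitor (RPMI, labelled mock), in RPMI-1640 with CHIR99021 (CHIR), or in RPMI-1640 with CHIR99021 and SB431542 (CHIR+SB). CHIR99021 inhibits the kinase GSK3 and so stabilises β-catenin, and SB431542 blocks signalling by activin, Nodal and TGFβ at their type I receptors. Each condition had 1 β-catenin library and 1 goat IgG library, each made from DNA of parallel immunoprecipitations that were pooled, so no value has a spread between replicates. Expression was not measured, so the stem cell label could not be checked against marker RNAs.

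Human embryonic stem cells keep their undifferentiated state through a set of transcription factors, led by OCT4 (the product of POU5F1), SOX2 and NANOG, that bind near their own genes and near each other's. β-catenin has no DNA-binding domain and reaches chromatin through partners, above all the TCF/LEF factors, and through them carries the Wnt signal to genes. JARID2, LIN28A, L1TD1, DPPA4 and ZSCAN10 encode chromatin proteins, RNA-binding proteins and a zinc finger factor that stem cells express at high levels.

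Of the 10 genes, 5 had a peak in CHIR, 6 had one in CHIR+SB, and 9 had one in at least 1 list. As background, 1.13% of the 20052 protein-coding genes known to RefSeq had a peak assigned in RPMI. The share was 3.79% for CHIR, 6.22% for CHIR+SB and 7.58% for at least 1 list. A count of 0 of 10 in RPMI is near that list's share over all genes. The 10 genes were chosen with earlier results of these data known, so the counts of 5, 6 and 9 do not measure enrichment. POU5F1 and JARID2 had a peak in both CHIR and CHIR+SB. DPPA4, VRTN and ZSCAN10 had a peak in CHIR and none in CHIR+SB, and SOX2, LIN28A, L1TD1 and SALL1 had a peak in CHIR+SB and none in CHIR. The shares of all genes with a peak in both lists, or in only 1 of them, were not computed.

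**Figure D1:**
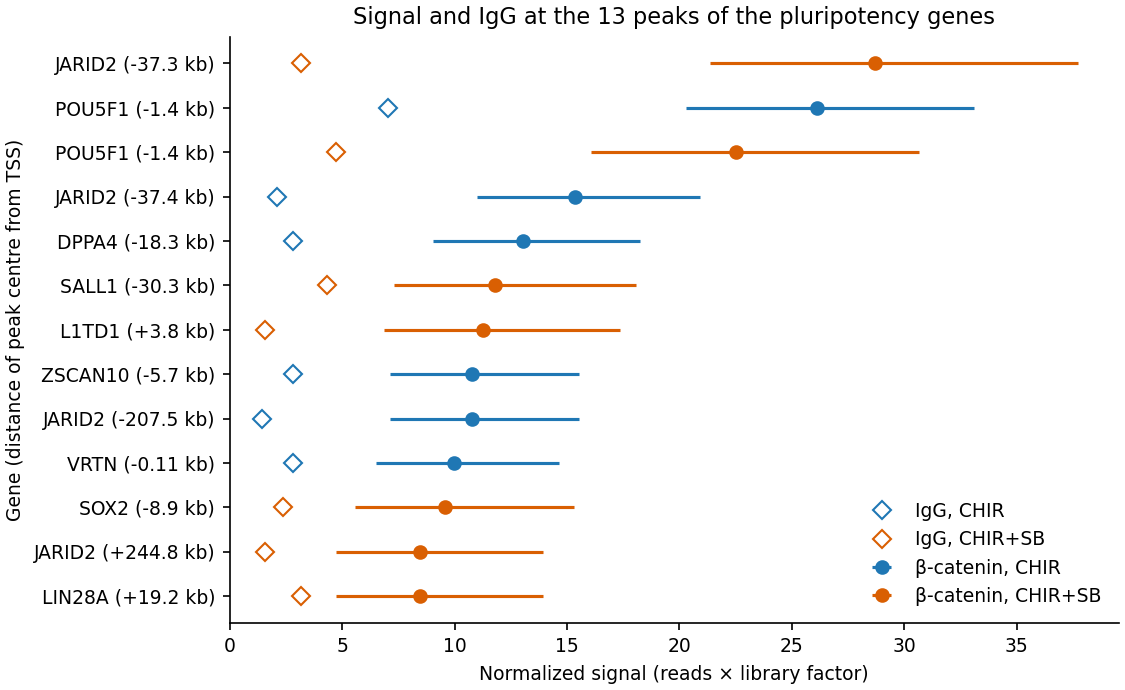
Normalized signal (x axis; reads in the peak multiplied by the authors' factor for the library) at the 13 peaks, with the gene and the distance of the peak centre from its TSS on the y axis. Filled circles are β-catenin with exact 95% Poisson intervals, open diamonds the IgG signal in the same peak, blue CHIR and orange CHIR+SB; JARID2 in CHIR+SB (28.7) and POU5F1 in both lists (26.1 and 22.5) stand above the other peaks, which lie between 8.44 and 15.4.

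POU5F1, which encodes OCT4, had its peak upstream of the gene at nearly the same place in both lists. In CHIR it spanned chr6:31139565-31140127 (hg19, as are all peak positions here), with its centre 1.40 kb upstream of the TSS. It held 68 β-catenin reads (exact 95% Poisson interval 52.8 to 86.2) and 10 IgG reads, and ranked 72 of 1053 by reads. In CHIR+SB it spanned chr6:31139543-31140176, with 40 reads (28.6 to 54.5) and 12 IgG reads, and ranked 116 of 1813. The authors' −log10 p came to 57.2 for CHIR and 36.7 for CHIR+SB. The nearest RPMI peak was 210 kb away. The stretch upstream of the POU5F1 promoter is known for enhancers that drive the gene in stem cells.

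The POU5F1 peak also had more IgG reads than most of the other peaks. By the authors' factors, the IgG library was 0.976 times (CHIR) and 1.75 times (CHIR+SB) as deep as that of RPMI. Raw IgG reads are therefore not comparable between lists. Normalized, the IgG signal at POU5F1 was 7.06 in CHIR and 4.72 in CHIR+SB. Its signal over IgG, both normalized, came to 3.70 with CHIR (exact 95% interval 1.89 to 8.06) and to 4.76 with CHIR+SB (2.45 to 9.97). Of all CHIR peaks, 25.7% had a lower signal over IgG, although by reads it stood at percentile 93.1. For CHIR+SB, 59.3% had a lower signal over IgG. The CHIR peak was thus high by reads, while its signal over IgG was below the list's median of 4.66. The interval of that signal over IgG includes the median.

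The normalized signal of POU5F1 was 26.1 in CHIR and 22.5 in CHIR+SB, a ratio of CHIR+SB to CHIR of 0.862 (exact 95% interval from the reads 0.568 to 1.29). The interval includes 1, so no difference was detectable at this depth, and a change within that interval could not have been seen. Of all 642 peaks that overlapped one-to-one between these lists, the interval lay above 1 at 6.7% and below 1 at 4.21%. In signal over IgG the order of the 2 libraries turned: the quotient was 1.29 (0.455 to 3.60).

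JARID2, a subunit that joins the Polycomb complex PRC2 and guides it to developmental genes, had more peaks than any of the other 9 genes, 2 in CHIR, 2 in CHIR+SB and none in RPMI. Peaks were taken at any distance, and this count was not adjusted for the length of the gene. The highest lay 37.4 kb upstream of the TSS in CHIR (chr6:15208539-15209050) and overlapped the CHIR+SB peak 37.3 kb upstream (chr6:15208455-15209292). It held 40 reads (exact 95% Poisson interval 28.6 to 54.5) and 3 IgG reads in CHIR, rank 318 of 1053. In CHIR+SB it held 51 reads (37.97 to 67.1) and 8 IgG reads, rank 50 of 1813. With CHIR its signal over IgG came to 7.26 (2.31 to 36.7) and with CHIR+SB to 9.11 (4.29 to 22.2), above that of 78.5% and 91.7% of the peaks of those lists.

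The normalized signal at this JARID2 site came to 15.4 with CHIR and 28.7 with CHIR+SB. The ratio of 1.87 had an exact interval of 1.21 to 2.90, above 1, and stood at percentile 96.0 of the 642 one-to-one peaks. The called stretch was 511 bp wide in CHIR and 837 bp in CHIR+SB, a width ratio of 1.64 that stood beside the signal ratio. Per bp of peak, the ratio was 1.14 (0.739 to 1.77), percentile 72.8. In signal over IgG the quotient was 1.26 (0.203 to 5.70), whose interval includes 1. Across the 642 pairs, width ratio and signal ratio moved together (Pearson r = 0.839 on log2 values, Spearman rho = 0.869). That correlation is a description across peaks of the same libraries, in which a wider peak counts more reads. For POU5F1 the widths were 562 and 633 bp, and the ratio per bp was 0.765 (0.504 to 1.15).

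**Figure D2:**
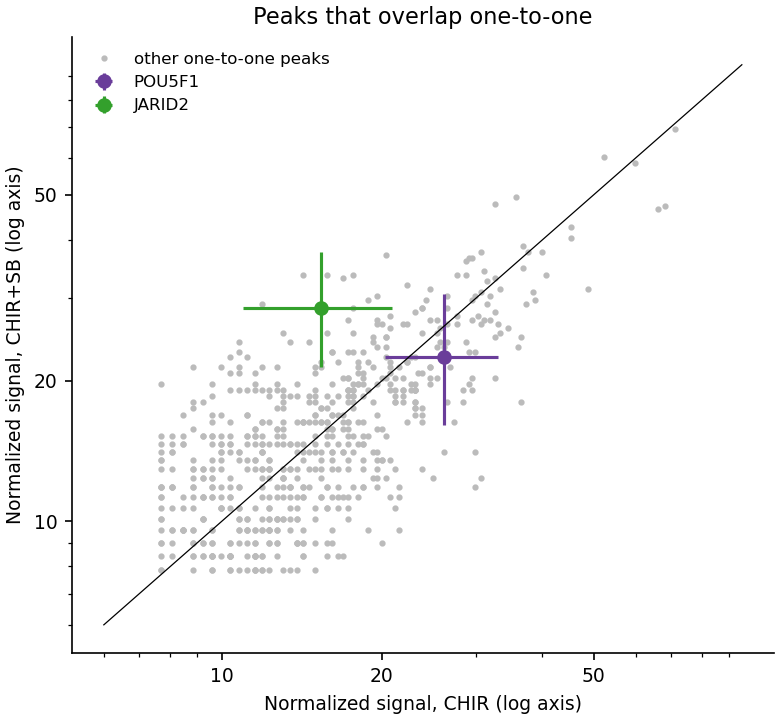
Normalized signal in CHIR (x axis, log) against CHIR+SB (y axis, log) at the 642 peaks that overlap one-to-one; grey points are other genes, bars are exact 95% Poisson intervals and the line marks equal signal. JARID2 lies above the line (15.4 and 28.7) and POU5F1 close to it (26.1 and 22.5).

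The other JARID2 peaks were lower and were in 1 list each. In CHIR, a peak 207 kb upstream (chr6:15038583-15038868) held 28 reads and 2 IgG reads, with a signal of 10.8 and a signal over IgG of 7.62 (1.92 to 66.0). The nearest CHIR+SB peak was 170 kb away. In CHIR+SB, a peak within the gene (chr6:15493859-15494004), 245 kb from the start of the transcript NM_001267040, held 15 reads and 4 IgG reads, with a signal of 8.44. It lay 28.3 kb before the gene's end, and 3.79 kb beyond that end began a further CHIR+SB peak, of 17 reads, that the authors had assigned to DTNBP1. The JARID2 locus thus had peaks on both sides of and within the gene, and the site 37 kb upstream was the 1 place called in both lists.

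The peaks closest in level to those 2 were found among the 493 other one-to-one pairs that overlapped no RPMI peak, by the distance between log2 signals in CHIR and CHIR+SB. For POU5F1 they were near ADRA2C (26.5 in CHIR and 24.2 in CHIR+SB, distance 0.106), PCDH9 (25.7 and 24.2, distance 0.107) and ZNF423 (24.6 and 21.4, distance 0.115). For JARID2 they were near POLN (15.7 and 25.3, distance 0.184), KIAA1522 (17.3 and 27.0, distance 0.191) and LRRN2 (17.7 and 28.7, distance 0.202). The likeness covers 2 libraries and says nothing beyond the levels.

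Of the core factors besides OCT4, SOX2 had a peak in CHIR+SB and NANOG had none. The SOX2 gene, for the HMG-box factor that pairs with OCT4 on DNA, had its peak 8.86 kb upstream (chr3:181420711-181420996). It held 17 reads (exact 95% Poisson interval 9.90 to 27.2) and 6 IgG reads, a signal of 9.56, equal to the median of the CHIR+SB list. The nearest CHIR peak under any gene name was 53.1 kb away. That peak, 44.4 kb beyond the SOX2 TSS, had been assigned to SOX2-OT, the long noncoding gene within which SOX2 lies. It held 21 reads and 3 IgG reads in CHIR (chr3:181474068-181474195) and 23 reads and 7 IgG reads in CHIR+SB (chr3:181473889-181474329). Its normalized signal was 8.06 in CHIR and 12.9 in CHIR+SB. By position and not by name, SOX2 therefore had a peak within 50 kb in both lists. In RPMI too a peak was assigned to SOX2-OT, with a signal of 9.61. The RPMI peak nearest to the SOX2 peak was 316 kb away. Of the 9 genes with an assigned peak, 6 had a CHIR peak within 50 kb of their TSS, and NANOG was not searched by position.

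NANOG, the homeobox factor of the core network, had no peak in any list. Neither had the genes around it, GDF3, DPPA3, CLEC4C, NANOGNB and SLC2A14, whose order was taken from RefSeq on GRCh38.p14. SLC2A3, a glucose transporter gene, had a CHIR+SB peak of 16 reads and 9 IgG reads (chr12:8112370-8112669), whose distance from NANOG was not measured. Absence from a list does not show absence of β-catenin, since the lowest peak of a list held 15 reads (RPMI), 20 reads (CHIR) or 12 reads (CHIR+SB).

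The 250 bases before the NANOG start are shown because they are the promoter of the core gene without a peak (RefSeq, GRCh38.p14, chr12:7789152-7789401, plus strand, 5′ to 3′). The capitals mark ACAATG, the reverse complement of the SOX motif CATTGT, 112 bases before the start.
NANOG: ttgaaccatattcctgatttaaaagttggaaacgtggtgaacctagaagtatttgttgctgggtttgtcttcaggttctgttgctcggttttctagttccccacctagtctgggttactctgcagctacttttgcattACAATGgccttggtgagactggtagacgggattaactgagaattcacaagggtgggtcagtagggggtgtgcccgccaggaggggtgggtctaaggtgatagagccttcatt

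Of the members, 7 of 10 had such a window in the RefSeq table, in 8 windows since JARID2 has 2 starts. POU5F1, LIN28A and SALL1 had no window. Both strands of these windows were searched for CATTGT, for the TCF/LEF motif CTTTGAT and for the octamer ATGCAAAT that OCT4 recognises. The SOX motif was in 2 of the 8, at NANOG and at the second JARID2 start, against 9.29% of all 35116 windows of that length. As an exact match, the TCF/LEF motif was in none of the 8, against 2.26% of all windows, and the octamer in none, against 1.63%. Near matches were not counted. An example is ttttgcat, just before the marked ACAATG at NANOG, which differs from the octamer's reverse complement ATTTGCAT in its first letter. The absence of an exact octamer therefore does not show that a window lacks a site for OCT4. A shorter stretch of the TCF/LEF motif, CTTTG, was added after the sequences had been seen and was in 5 of the 8, against 42.1% of all windows. It is contained in CTTTGAT, so those searches overlap. These are matches of letters and not measured sites. Of these genes, VRTN alone had a peak centred within 1 kb of its TSS. The sequences of the peaks themselves were not searched, so the β-catenin sites may or may not hold these motifs.

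VRTN was the 1 gene of the 10 with a peak at its promoter, defined as a peak centre within 1 kb of the TSS. VRTN encodes vertnin, a nuclear protein known for its effect on the number of thoracic vertebrae in pigs. The CHIR peak (chr14:74814924-74815185) was centred 0.111 kb upstream of the TSS, with 26 reads (exact 95% Poisson interval 16.98 to 38.1) and 4 IgG reads. Its signal of 9.98 was below the CHIR list's median of 11.9, and its signal over IgG was 3.54 (1.23 to 13.9). Promoter peaks made up 26.6% of the CHIR list and 14.5% of the CHIR+SB list, against 1 of the 13 peaks here.

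The bases before the VRTN start are shown because they are the 1 promoter here at which the lists have a peak (RefSeq, GRCh38.p14, chr14:74348221-74348470, plus strand, 5′ to 3′). The peak itself is placed on hg19, and which of these bases it covers was not determined. The capitals mark CTTTG, 233 bases before the start.
VRTN: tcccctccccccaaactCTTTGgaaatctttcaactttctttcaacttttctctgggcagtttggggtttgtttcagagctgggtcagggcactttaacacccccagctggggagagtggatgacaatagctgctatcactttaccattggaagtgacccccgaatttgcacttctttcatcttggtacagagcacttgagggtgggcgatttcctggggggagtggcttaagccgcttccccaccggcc

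DPPA4 and ZSCAN10 also had their peaks in the CHIR list alone. DPPA4, a chromatin protein of pluripotent cells, had a peak 18.3 kb upstream (chr3:109074536-109074978) with 34 reads (exact 95% Poisson interval 23.5 to 47.5) and 4 IgG reads. Its signal of 13.1 was above the list's median of 11.9. The neighbouring gene DPPA2 had no peak assigned. ZSCAN10, a zinc finger factor of embryonic stem cells, had a peak 5.70 kb upstream (chr16:3148382-3148733) with 28 reads (18.6 to 40.5) and 4 IgG reads, and a signal of 10.8. A site 84.4 kb away, assigned to CLDN9, was called in both lists, with 24 reads in CHIR and 22 in CHIR+SB.

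The CHIR+SB list alone also had peaks at L1TD1, SALL1 and LIN28A. L1TD1, an RNA-binding protein derived from a LINE-1 element, had a peak within the gene 3.78 kb from the TSS (chr1:62664038-62664476). It held 20 reads (exact 95% Poisson interval 12.2 to 30.9) and 4 IgG reads, a signal of 11.3 and a signal over IgG of 7.14 (2.39 to 28.7), higher than 85.5% of the list. SALL1, a zinc finger factor, had a peak 30.3 kb upstream (chr16:51215243-51215631) with 21 reads (12.999 to 32.1) and 11 IgG reads. Its signal was 11.8, and its signal over IgG of 2.73 (1.26 to 6.26) was near the lowest value of the list, 2.22. Only 3.25% of the CHIR+SB peaks had a lower signal over IgG than SALL1.

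LIN28A, which blocks the maturation of let-7 microRNAs, had its peak beyond the gene, 0.23 kb past its end and 19.2 kb from the TSS (chr1:26756397-26756501). It held 15 reads (exact 95% Poisson interval 8.40 to 24.7) and 8 IgG reads, with a signal of 8.44 and a signal over IgG of 2.68 (1.07 to 7.30). Of the CHIR+SB peaks, 1.71% had a lower signal over IgG and 0.938% were narrower than its 104 bp. DHDDS, the neighbouring gene on that side, had no peak assigned. The LIN28A and SALL1 peaks were the 2 with the weakest contrast to IgG among the 13.

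**Figure D3:**
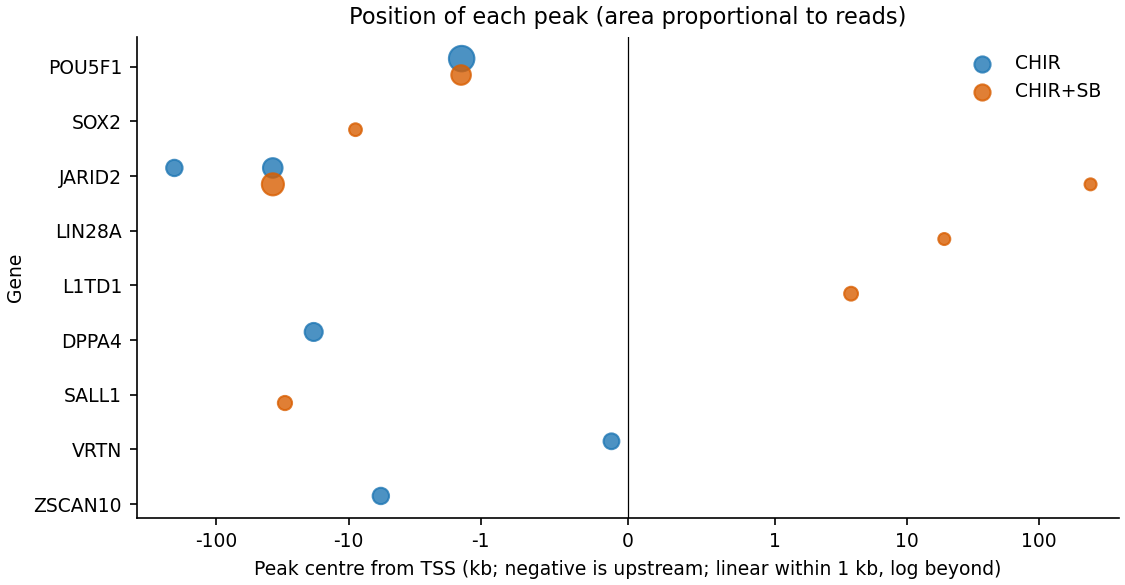
Distance of each peak centre from the TSS of its gene (x axis, kb; negative values are upstream; linear within 1 kb and logarithmic beyond) for the 9 genes with a peak; blue is CHIR, orange CHIR+SB and the area of a circle is proportional to its reads. Of the 13 peaks, 10 are upstream, 2 within the gene and 1 beyond its end, and VRTN alone has a centre within 1 kb.

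By position, 10 of the 13 peaks were upstream of the gene, 2 within it and 1 beyond its end. A distance of at most 10 kb held for 6 peaks and one of at most 50 kb for 11. The exceptions beyond 50 kb were the JARID2 peaks 207 kb upstream and 245 kb into the gene. Shares of the whole lists by position, or within 10 or 50 kb, were not computed. These counts therefore describe the 13 peaks and show no trait of the genes. The median distance to the TSS was 12.0 kb for the 6 CHIR peaks, against 15.6 kb over the CHIR list, and 19.2 kb for the 7 CHIR+SB peaks, against 45.9 kb over that list. Within 10 kb of a TSS, 3 genes had a peak in CHIR (POU5F1, VRTN and ZSCAN10) and 3 in CHIR+SB (POU5F1, SOX2 and L1TD1).

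Apart from the JARID2 peak 37 kb upstream and POU5F1, the peaks were of ordinary height for their lists. The median signal of the 6 CHIR peaks was 11.9, the same as the list's median of 11.9. That of the 7 CHIR+SB peaks was 11.3, against 9.56 over the list. Above the list's median were 3 CHIR genes (POU5F1, JARID2 and DPPA4) and 4 CHIR+SB genes (POU5F1, JARID2, L1TD1 and SALL1). Among the 260 highest peaks of each list were POU5F1 in CHIR and POU5F1 and JARID2 in CHIR+SB.

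Per kb of peak, the order changed. The narrow LIN28A peak then had the highest signal per kb, 81.1, followed by the JARID2 peak within the gene, 58.2, both from 15 reads. POU5F1 followed with 46.5 in CHIR, and had 35.5 in CHIR+SB. The lowest signal per kb was at L1TD1, 25.7, and the JARID2 peak 37 kb upstream had 30.1 in CHIR and 34.3 in CHIR+SB.

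**Figure D4:**
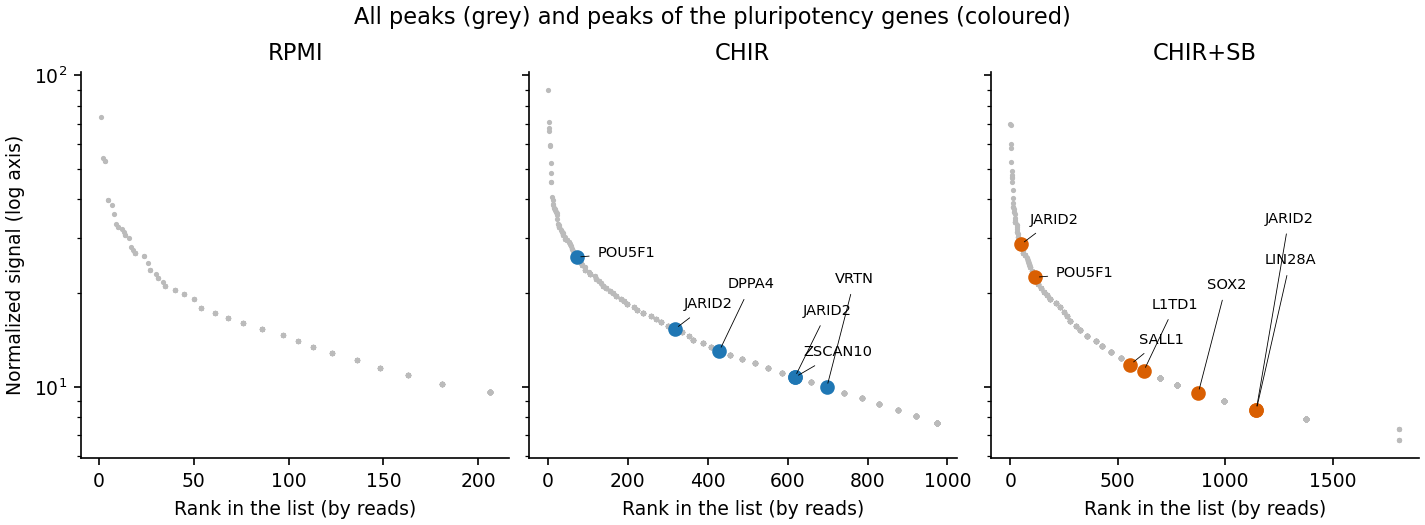
Normalized signal (y axis, log) against rank by reads (x axis) for all peaks of each list in grey, with the peaks of the 10 genes coloured and named. The RPMI panel has no coloured point; POU5F1 (ranks 72 and 116) and JARID2 (rank 50 in CHIR+SB) lie on the steep part of the curve and the rest on the flat part.

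None of the 13 peaks overlapped an RPMI peak by 1 bp, where 17% of all CHIR peaks and 8.77% of all CHIR+SB peaks did. A CHIR+SB partner was found for 2 of the 6 CHIR peaks (over the whole list, 63.3%), and a CHIR partner for 2 of the 7 CHIR+SB peaks (over the whole list, 36.6%). The counts were the same when each peak had to be covered to at least 50% and when centres had to lie within 1 kb. With 1 library per condition there was no test of these counts between conditions.

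Libraries of different depth call different peaks, so each signal was expressed as the reads it would give in another library. By the authors' factors, the β-catenin library of CHIR was 1.67 times and that of CHIR+SB 1.14 times as deep as that of RPMI, where the lowest peak had 15 reads. The POU5F1 signal in CHIR would have given 40.7 reads in RPMI (interval from counting error 31.6 to 51.7), and in CHIR+SB 35.1 (25.1 to 47.8). The JARID2 signal 37 kb upstream would have given 24.0 reads (17.1 to 32.6) by its CHIR level and 44.8 (33.3 to 58.9) by its CHIR+SB level. For these the whole interval lay above the lowest read count of the RPMI list. The reads expected there at the same signal were thus above that count. These intervals cover the counting error of the CHIR or CHIR+SB count and not that of the RPMI library. A count in RPMI could therefore still fall below 15 reads, and the further criteria of the peak caller are unknown here.

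For the other 9 peaks the interval reached below 15 reads. The values ran from 13.2 reads (LIN28A and the JARID2 peak within the gene) and 14.9 reads (SOX2) to 20.4 reads (DPPA4, 14.1 to 28.5). Absence from RPMI could therefore not be told apart from a site at equal signal and too few reads. In all, 6 of 6 CHIR peaks and 4 of 7 CHIR+SB peaks would have reached 15 reads in RPMI, against 65.9% and 44.0% of all peaks of those lists that overlapped no RPMI peak.

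Between the inhibitor conditions, the 4 CHIR peaks with no CHIR+SB partner would all have reached the lowest CHIR+SB count of 12 reads. This was fixed in advance for every CHIR peak, since the lowest CHIR signal, 7.68, was above the lowest CHIR+SB signal, 6.75. DPPA4 would have given 23.2 reads (16.1 to 32.4), ZSCAN10 and the JARID2 peak 207 kb upstream 19.1 each (12.7 to 27.6), and VRTN 17.7 (11.6 to 26.0). The 5 CHIR+SB peaks with no CHIR partner would have given 22.0 reads in CHIR (LIN28A and the JARID2 peak within the gene, 12.3 to 36.2), 24.9 (SOX2, 14.5 to 39.9), 29.3 (L1TD1, 17.9 to 45.2) and 30.8 (SALL1, 19.0 to 47.0). Each of these 5 intervals reached below the lowest CHIR count of 20 reads. Nearly all peaks of either list without a partner reached the minimum of the other, 100% of those in CHIR and 99.5% of those in CHIR+SB, so this was not particular to the 10 genes.

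**Figure D5:**
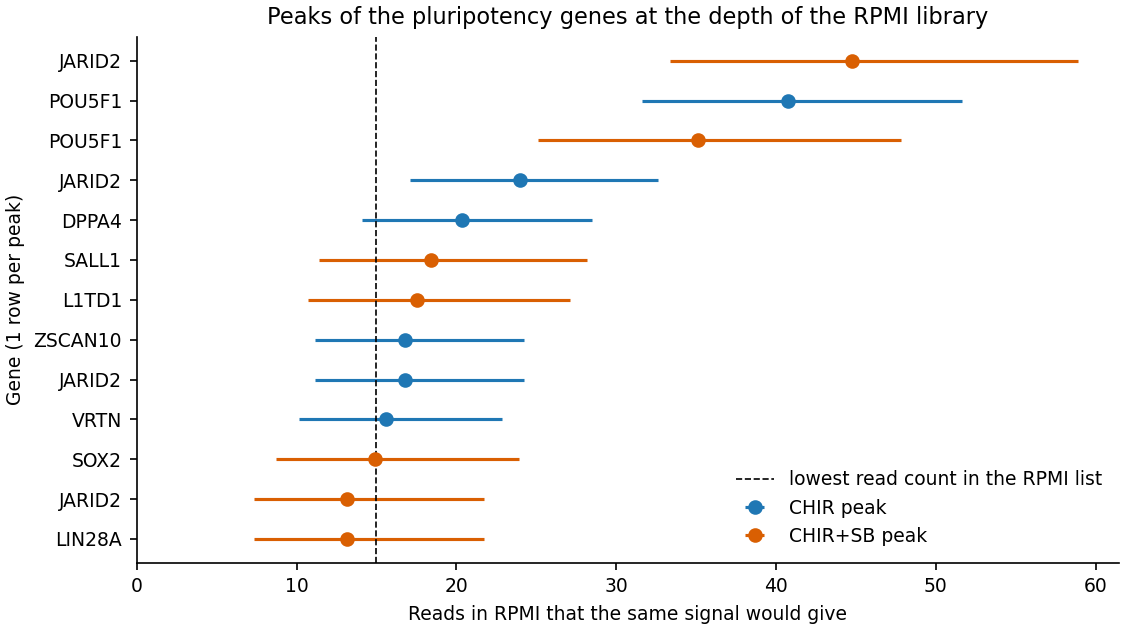
Reads that each of the 13 peaks would have in the RPMI library at the same normalized signal (x axis), with 1 row per peak; bars are exact 95% Poisson intervals scaled to that depth, and the dashed line is the lowest read count of the RPMI list, 15. POU5F1 and the JARID2 peak 37 kb upstream lie wholly above the line, and the other bars cross it.

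Among 41 other genes of the pluripotency network, none had a peak in RPMI, 7 had one with CHIR and 9 with CHIR+SB, and 6 were in both inhibitor lists. Over all protein-coding genes these shares were 1.13% (RPMI), 3.79% (CHIR) and 6.22% (CHIR+SB), so the count of 0 in RPMI is near that list's share over all genes. These 41 genes too were chosen with earlier results of these data known, so the counts of 7 and 9 do not measure enrichment. The count of 6 in both inhibitor lists was by gene name, and not all of these 6 genes had overlapping sites. No share of all genes in both lists was computed. The highest signals were at PRDM14 and KLF4. PRDM14, a repressor of differentiation in stem cells, had 28 reads in CHIR and 38 in CHIR+SB at overlapping sites 93.8 kb from its TSS beyond the gene, with signals of 10.8 and 21.4. KLF4, a reprogramming factor, had 28 reads in CHIR+SB, 383 kb upstream, with a signal of 15.8. The SALL1 relative SALL3 had 31 and 26 reads at overlapping sites within the gene, 3.49 and 3.40 kb from the TSS, with signals of 11.9 and 14.6. KLF5 had 24 reads in CHIR+SB, 20.8 kb upstream, with a signal of 13.5.

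TDGF1 (current symbol CRIPTO), the Nodal co-receptor, had a promoter peak of 33 reads in CHIR and one of 18 reads in CHIR+SB, with signals of 12.7 and 10.1. TBX3, a T-box factor, had 24 reads in CHIR and 22 in CHIR+SB, at sites that did not overlap. PRC2, the complex that JARID2 joins, had 1 of 10 genes with a peak, EED, with 14 reads and 3 IgG reads in CHIR+SB 37.9 kb from its TSS. Over all protein-coding genes 7.58% had a peak in at least 1 list, so 1 of 10 is near the background and is no result about PRC2. EED was named because the count was 1, after its value was seen. None of these 51 genes had a signal as high as the 28.7 of JARID2 or the 26.1 of POU5F1.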

How the data were processed

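β-catenin ChIP-seq lists of 3 libraries were used, 1 per condition, with IgG through the counts beside each peak. Bowtie is the aligner and hg19 and mm9 are the builds named, per the submitters' processing notes; gene positions in the lists are those of hg19. Not given in the sources used here are the peak caller, its thresholds and the total depth. Per the file headers, the authors deposited for each peak whole read counts of both libraries, a normalized signal (count times 1 factor per library), the ratio to IgG, −log10 p-values, the assigned gene and distances to its start and end. Decimal commas were read as points.

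Member peaks were taken by gene name, ignoring case. Counts carry exact 95% Poisson intervals and ratios exact 95% binomial (Clopper-Pearson) intervals. All cover counting error only, since each condition has 1 library. They take reads as independent, which PCR reads are not, so the intervals may be too narrow. Overlap meant at least 1 bp, and pairs in one-to-one overlap gave ratios. Reads at equal signal came from the quotient of the authors' factors. The interval of a quotient of signals over IgG is that of the odds ratio of the 4 counts. No p-value was computed, as each condition has 1 library. Interval code was tested on simulated data.

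The members and lists were chosen with earlier results of these data known, and POU5F1 and JARID2 ratios had been seen. Genes named besides the members by rule were at most 6 other network genes of highest signal and, for POU5F1 and JARID2, the 3 pairs closest in level. Outside that rule, and chosen after the values were seen, are EED and the genes next to a member or assigned a peak near one (SOX2-OT, DTNBP1, CLDN9, SLC2A3, GDF3, DPPA3, CLEC4C, NANOGNB, SLC2A14, DPPA2 and DHDDS). Gene names matched RefSeq (GRCh38.p14) for 98.0% (RPMI), 94.6% (CHIR) and 95.3% (CHIR+SB); promoter sequences are from RefSeq. Python 3.11.15, scipy 1.17.1 and pandas 2.3.3 were used. Alternatives were other distances, thresholds, overlaps, scalings, peak widths and IgG corrections.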

Additional observations from a re-analysis of the deposited data

How the results depend on the processing

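The count of genes with a peak stayed at 0 in RPMI under every alternative run. Alternatives that only filter the RPMI list could not have raised that count. Only the search within 50 kb under any assigned gene could have done so. From 5 genes in CHIR and 6 in CHIR+SB, the count fell to 3 and 3 with peaks within 10 kb, and to 1 and 2 with the 260 highest peaks of each list. Above each list's median, CHIR had 3 and CHIR+SB had 4. The common minimum signal of 9.61 left 5 and 4, LIN28A and SOX2 being lost. The balance of CHIR to CHIR+SB genes thus turned with the setting. With any assigned gene within 50 kb, an alternative chosen after seeing the data, it was 6 and 6, NANOG not being searched by position. Counts of overlapping member peaks were the same under both other overlap rules. At JARID2 the ratio of CHIR+SB to CHIR no longer had an interval above 1 in raw reads (1.27, 0.826 to 1.98), per bp (1.14) or over IgG (1.26). At POU5F1 it lay below 1 in raw reads, which are not corrected for depth (0.588, 0.388 to 0.882), and turned to 1.29 over IgG, with an interval that includes 1. Setting the median of promoter pairs to 1 gave 2.14 for JARID2 and 0.986 for POU5F1. No paired analysis was possible because each condition has 1 library. At the depth of RPMI, counting error reached below the lowest read count of that list for the 9 peaks of 15 to 34 reads other than POU5F1 and the JARID2 peak 37 kb upstream.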
